A study of Mus musculus with 12 samples.

Results

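The tumour necrosis factor (TNF) ligands and their receptors were taken from a table of liver gene counts as the protein-coding genes named by the Tnfsf and Tnfrsf pattern, plus Tnf, Lta, Ltb, Fas, Fasl, Cd40, Cd27 and Cd70. The rule found 39 of 54532 genes. They comprised 16 ligands, 5 receptors with an intracellular death domain, 14 other signalling receptors and 4 decoy or related receptors. RNA came from the livers of wild-type mice, described as chow mice in the series title, 9 days after an adenovirus was given. Ad_GFP livers received a control virus, named for green fluorescent protein in the sample titles, and ANG8 livers received a virus to overexpress ANGPTL8, a secreted liver protein known for its part in inhibiting lipoprotein lipase. Livers of the shCtrl group received a control short-hairpin virus, and those of the shANG8 group a virus to knock ANGPTL8 down. Each group held 3 libraries, every group carried an adenovirus, and the labels used here give no age. No label states that each library is a separate mouse, so every p-value reflects only the spread among these samples, and that spread may be technical.

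TNF superfamily ligands are mostly membrane proteins that act as trimers on a neighbouring cell, some of them after being shed. Receptors with a death domain recruit adaptors that can activate caspase-8 or necroptosis, whereas the other signalling receptors bind TRAF adaptors and switch on NF-kB and stress kinases. In liver, TNF and Fas ligand are known as triggers of hepatocyte death and of acute-phase signalling, TWEAK and its receptor Fn14 are known from progenitor and injury responses, and CD27, 4-1BB and HVEM are known as costimulatory receptors of lymphocytes.

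Libraries held 12537083 to 15144312 counts. The targeted gene Angptl8 stood at 96.8, 80.4 and 90.0 CPM (a gene's reads relative to the scaled size of its library) in Ad_GFP and at 165, 314 and 172 CPM in ANG8. Its level was 340, 391 and 167 CPM in shCtrl and 144, 143 and 79.2 CPM in shANG8, so neither pair of groups overlapped. The rise with the ANG8 virus passed the test (log2 fold change 1.28, SE 0.33, edgeR adjusted p = 0.0201) and the lower level in shANG8 did not (-1.29, SE 0.33, adjusted p = 0.235). The control groups themselves differed in this gene: every shCtrl library stood above every Ad_GFP library (1.75, SE 0.33, adjusted p = 0.338, not called), a difference larger than that between ANG8 and Ad_GFP. Group means, from the lowest, were those of Ad_GFP (89.1 ± 8.24 CPM, SD, n = 3), shANG8 (122 ± 37.1), ANG8 (217 ± 84.0) and shCtrl (299 ± 117), so the mean of the knockdown group lay above that of Ad_GFP and the mean of the overexpression group below that of shCtrl. Overexpression and knockdown below therefore refer to each virus against its own control. Which species' ANGPTL8 the virus encodes is not given in the labels. Hepatocyte markers, which define the labelled tissue, summed to 23803 to 81287 CPM per library. Mitochondrial genes took 39.0%, 43.8% and 22.5% of the counts in the ANG8 libraries, 19.8% to 34.9% in Ad_GFP and 19.3% to 24.2% in the hairpin groups.

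Upstream flanks are shown for 3 of the receptors that rose in ANG8 livers, to set them beside each other. RefSeq gave start sites for 30 of the 39 genes on GRCm38.p6, and the 250 bases before each start were searched on both strands, with annotated exon bases included in the search but left out of what is printed. Capitals mark GC boxes (GGGCGG or its complement). The Cd27 flank covers chr6:125237028-125237277 (minus strand), the Tnfrsf12a flank chr17:23677469-23677699 (minus strand), and the Tnfrsf9 flank of its more upstream RefSeq start chr4:150919905-150920154 (plus strand). By the deposited gene coordinates this Tnfrsf9 start lies 5593 bases inside the gene, and the more downstream start 13437 bases inside.
Cd27: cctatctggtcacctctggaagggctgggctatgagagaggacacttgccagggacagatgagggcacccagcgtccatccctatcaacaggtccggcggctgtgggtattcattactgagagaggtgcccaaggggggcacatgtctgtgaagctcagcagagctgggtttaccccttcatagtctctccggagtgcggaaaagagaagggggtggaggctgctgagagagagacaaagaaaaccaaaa
Tnfrsf12a: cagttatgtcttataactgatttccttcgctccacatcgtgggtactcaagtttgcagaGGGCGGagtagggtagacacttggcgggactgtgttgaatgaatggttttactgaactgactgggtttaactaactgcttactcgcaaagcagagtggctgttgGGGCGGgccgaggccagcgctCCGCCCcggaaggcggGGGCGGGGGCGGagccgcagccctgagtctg
Tnfrsf9: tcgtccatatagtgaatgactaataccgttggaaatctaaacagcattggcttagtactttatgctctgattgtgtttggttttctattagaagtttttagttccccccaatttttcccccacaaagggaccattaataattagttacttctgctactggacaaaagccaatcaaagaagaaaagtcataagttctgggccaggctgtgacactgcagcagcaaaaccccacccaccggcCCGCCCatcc

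The Tnfrsf12a flank held 5 GC boxes, of which those at -50 to -45 and -44 to -39 lie end to end, and the Tnfrsf9 flank held 1. The letters of none of the 5 motifs searched were found in the Cd27 flank. GC boxes were found for 14 of the 30 genes, and in 32.7% of 32851 RefSeq flanks of this length. Here and below a gene counts if any of its RefSeq flanks matched, whereas the percentages are per flank. A gene with more starts thus has more chances of a match, and the counts and percentages are in unlike units. The kappaB letters, GGG and TTTCC with any 2 bases between them, were found for 3 genes (Ltb, Tnfrsf25 and Tnfrsf9) and in 1.4% of all flanks. At the more downstream start of Tnfrsf9 the match was GGGGATTTCC at -43 to -34, beside an AP-1 match TGAGTCA at -15 to -9, and both lie in bases annotated as exon. Interferon response letters, TTTC repeated after any 2 bases, were found for 4 genes (Tnfrsf14, Tnfrsf17, Tnfrsf1b and Tnfsf13b) and in 3.0% of all flanks, with TTTCATTTTC at -64 to -55 for Tnfrsf14, also in annotated exon. AP-1 letters TGANTCA were found for 6 genes and in 6.7% of all flanks, and STAT-type letters TTCNNNGAA for 8 genes and in 7.0%. These motifs can overlap each other, and a match describes the sequence only.

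Most of the family was present at low levels in these livers. In the fit, 26 of the 39 genes passed the filter on low counts (about 0.697 CPM), and none of them passed through a single group. Compared per kilobase of transcript and averaged over the 12 libraries, the TNF receptor Tnfrsf1a was highest at 35.7 CPM per kb. After it came Tnfrsf12a (Fn14) at 10.6, the second TNF receptor Tnfrsf1b at 9.61, the death receptor Fas at 8.52 and the Fn14 ligand Tnfsf12 (TWEAK) at 7.59 CPM per kb. Next in this order of mean levels per kb stood Ltb, a subunit of membrane lymphotoxin, at 4.03, Tnfrsf14 (HVEM) at 2.99, Cd27 at 2.66, Tnfsf10 (TRAIL) at 2.18, Tnfrsf4 (OX40) at 1.53, Tnf at 1.42 and Tnfrsf19 at 1.12 CPM per kb. The other 14 tested genes lay between 0.262 (Tnfrsf26) and 0.793 CPM per kb (Tnfrsf21). Group means of Tnfrsf1a were 29.7 to 39.2 CPM per kb, above every other member in every group. Neighbours in the order changed places between groups, as Tnfrsf12a stood at 22.2 CPM per kb in ANG8 and at 6.27 to 7.28 in the other groups.

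**Figure D1:**
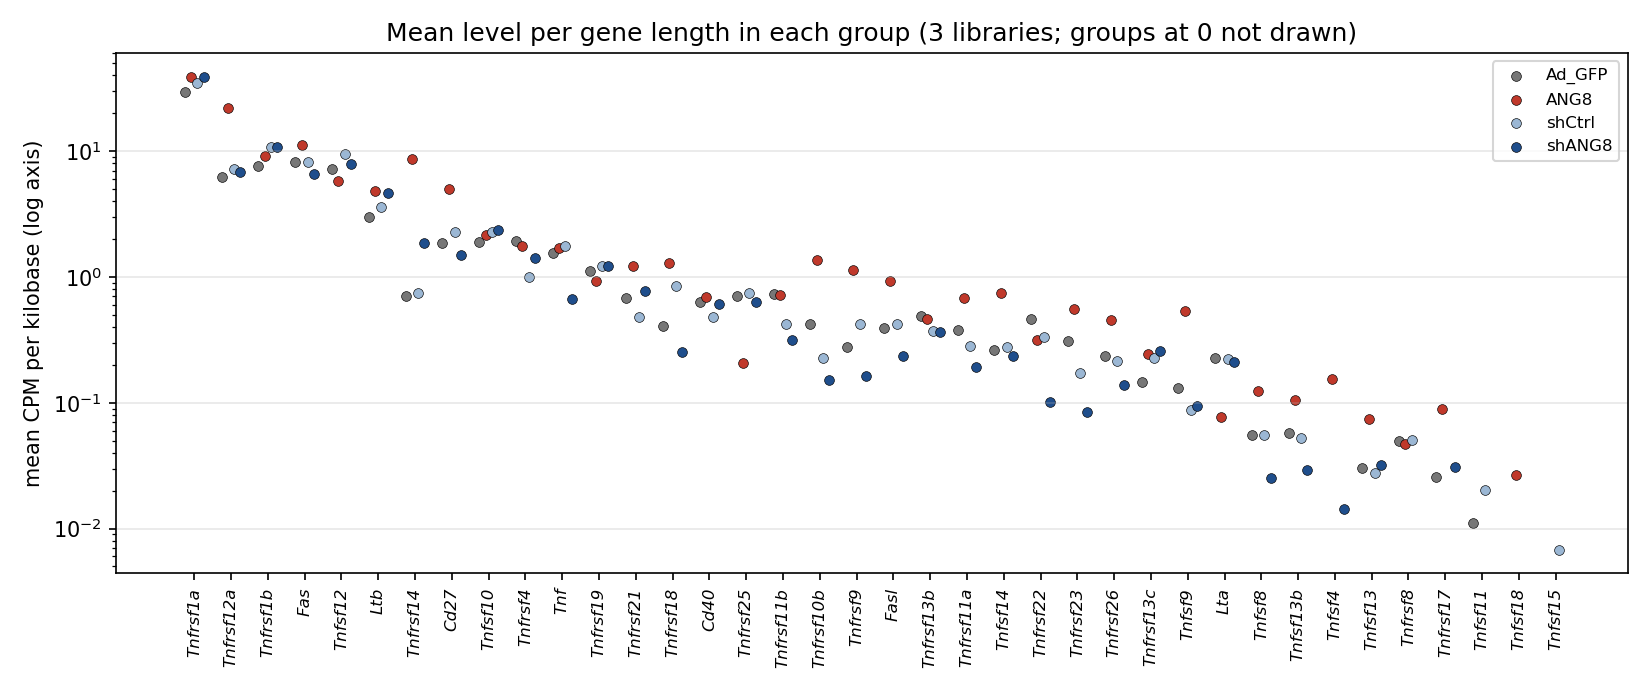
Mean level per kilobase (CPM per kb, log axis) of the family genes with at least 1 count, tested or not, with 1 point for each group of 3 libraries whose mean is above 0. Tnfrsf1a lies highest in all 4 groups, at 29.7 to 39.2 CPM per kb, and the ANG8 points of Tnfrsf12a and Tnfrsf14 stand above those of the other groups.

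The 13 genes that were not tested included 10 of the 16 ligands. Cd70, the ligand of CD27, had 0 counts in all 12 libraries, which allows at most 0.0177 CPM over the pooled 169199430 counts, for counting error only. Over all libraries together, Tnfsf15 had 1 count, Tnfsf18 had 2, Tnfsf11 (RANKL) 3, the plasma cell receptor Tnfrsf17 (BCMA) 5, Tnfsf13 (APRIL) 12, Tnfsf4 (OX40 ligand) 12 and Tnfrsf8 (CD30) 22. Lta and Tnfsf8 (CD30 ligand) each had 42 counts, Tnfsf9 (4-1BB ligand) 46, the B cell survival factor Tnfsf13b (BAFF) 72 and its receptor Tnfrsf13c 75. Of the 12 counts of Tnfsf4, 2, 8 and 1 fell in the ANG8 libraries and 1 in shANG8 replicate 2. Tnfsf9 had 12, 12 and 4 counts in ANG8 and 8, 0 and 0 in Ad_GFP. Differences at this depth were not tested for these genes. Exons of Tnfsf13 share 60.05% of their bases with the readthrough gene Tnfsfm13, so its count depends on how shared reads were assigned.

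In ANG8 livers, 5 receptors of the family rose over Ad_GFP by edgeR's test and 0 members fell (DESeq2 called these 5 and also Tnfrsf25, which was lower). They were Cd27, Tnfrsf14, Tnfrsf12a, Tnfrsf9 and Tnfrsf10b, with log2 fold changes from 1.43 to 3.59. The 5 calls among 26 tested genes (19.2%) stood beside 13.5% of all 14686 tested genes called, 7.08% higher and 6.39% lower. By role, 4 of 11 tested TRAF-type receptors and 1 of 5 death receptors rose, whereas 0 of 6 ligands and 0 of 4 decoys passed edgeR's test (0 of either at an unadjusted p under 0.05, and 0 by DESeq2). The median log2 fold change of the 26 genes was 0.57, with 19 above and 7 below 0, beside a median of -0.000221 over all tested genes. Summed over the family, reads took 288 to 309 CPM in the ANG8 libraries and 179 to 206 CPM in Ad_GFP, and the sums of the TRAF-type receptors alone were 116 to 132 CPM against 57.7 to 66.0 CPM. In 11 of 26 genes every ANG8 library stood above every Ad_GFP library and in 1 gene below, beside 17.9% and 16.2% of all tested genes.

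Cd27 (ENSMUSG00000030336, GRCm38 chr6:125232622-125237010, minus strand) encodes a costimulatory receptor of T cells, NK cells and memory B cells. Ad_GFP libraries held 3.92, 5.26 and 3.83 CPM, whereas those of ANG8 held 11.7, 9.75 and 13.5 CPM. Every ANG8 library lay above every library of the other 3 groups, which reached at most 5.81 CPM. The rise was 1.43 (SE 0.27, n = 3 and 3, adjusted p = 0.00251) and passed in all 19 alternative settings run for it (adjusted p from 1.69e-05 to 0.016). Its flank printed above lies next to a start 17 bases upstream of the gene end given in the table, and 5.541% of its exon bases are shared with the microRNA gene Mir8113.

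Tnfrsf9 (ENSMUSG00000028965, chr4:150914562-150946102, plus strand) encodes 4-1BB, a receptor induced on activated CD8 T cells and NK cells. It stood at 1.14, 0.740 and 0.403 CPM in Ad_GFP and at 3.91, 3.52 and 1.82 CPM in ANG8, and these groups did not overlap. The rise of 2.0 (SE 0.55, adjusted p = 0.0233) passed in 14 of 19 alternatives. Leaving out Ad_GFP replicate 2 (adjusted p = 0.071) or 3 (0.0826), or ANG8 replicate 1 (0.105) or 2 (0.0737), ended the call, as did mitochondrial share as a term of the model (0.0884). Its ligand Tnfsf9 was among the genes with too few counts to test.

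Of 17 markers of T and NK cells, 9 rose in the same comparison and 1, Cd4, fell. Over all tested genes 7.08% were called higher and 6.39% lower. The 17 markers summed to 180 to 204 CPM in ANG8 and 74.2 to 107 CPM in Ad_GFP, and all 17 were detected well enough to be tested. Not all of them went the same way. Means of the NK cell markers Ncr1 and Klrb1c were 0.705 and 0.690 CPM in Ad_GFP and 0.583 and 0.763 CPM in ANG8. In RNA of whole liver, fewer cells of a type and less RNA per cell cannot be told apart. As a share of this marker sum, a ratio chosen after the values were seen, Cd27 made up 3.67% to 7.09% in Ad_GFP and 5.12% to 7.49% in ANG8, which overlap. Tnfrsf9 made up 0.437% to 1.07% of it in Ad_GFP and 1.01% to 1.91% in ANG8, which overlap at their edges. The part of these cells in the rise of Cd27 and Tnfrsf9 was not tested. Markers of B cells, which can also carry CD27, had 0 of 9 called by edgeR (0 at an unadjusted p under 0.05) and summed to 34.7 to 38.8 CPM in ANG8 and 43.5 to 66.1 CPM in Ad_GFP.

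**Figure D2:**
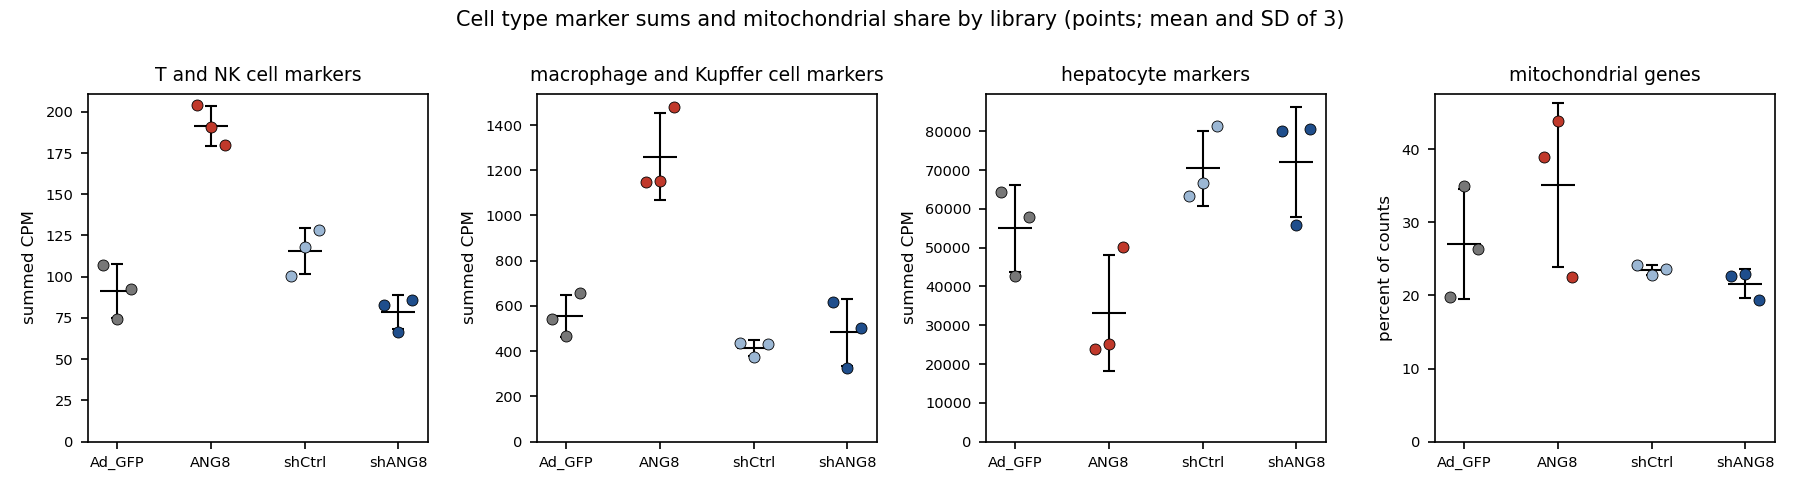
Summed CPM of marker genes of 3 cell types and the percentage of counts on mitochondrial genes in each library (points), with the mean and SD of 3 libraries per group. T and NK cell markers lie at 180 to 204 CPM in ANG8 and at or below 129 CPM elsewhere, and ANG8 replicates 1 and 2 hold the 2 highest mitochondrial shares.

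Tnfrsf14 (ENSMUSG00000042333, chr4:154921933-154928563, minus strand) encodes HVEM, which binds LIGHT and lymphotoxin alpha and engages BTLA on lymphocytes. Its level was 0.633, 0.888 and 1.55 CPM in Ad_GFP and 15.1, 19.2 and 2.91 CPM in ANG8. All ANG8 libraries were above all Ad_GFP libraries, but replicates 1 and 2 were far above replicate 3, and shANG8 replicate 3 reached 4.29 CPM. The fitted rise of 3.59 (SE 0.67, adjusted p = 0.00398) passed in all 19 alternatives (adjusted p from 5.37e-15 to 0.0296). Its size ranged from 2.46 in a model with mitochondrial share as covariate (adjusted p = 0.0166) to 4.04 without ANG8 replicate 3. ANG8 replicates 1 and 2 also held the highest mitochondrial shares of all libraries (39.0% and 43.8%), and the part of RNA quality in the Tnfrsf14 values was not tested. Parts of its transcript of at most 162 bases match 40 other genes at 95% identity or more, so reads from those stretches are uncertain.

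The ligands of HVEM were near the detection limit. Tnfsf14, which encodes LIGHT, stood at 0.127, 0.518 and 0.807 CPM in Ad_GFP and at 1.52, 1.31 and 1.27 CPM in ANG8. These groups did not overlap, yet the difference of 1.49 (SE 0.73) did not pass (adjusted p = 0.197). Lta had 0 to 10 counts in any library. Ltb, which pairs with Lta in membrane lymphotoxin, lay at 3.63 to 5.72 CPM in Ad_GFP and 5.46 to 8.93 CPM in ANG8 (0.70, SE 0.36, adjusted p = 0.214). The lymphotoxin beta receptor Ltbr, which the naming rule does not cover, was at 114 to 123 CPM in Ad_GFP and 105 to 129 CPM in ANG8 (0.03, SE 0.17, adjusted p = 0.939).

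Tnfrsf12a (ENSMUSG00000023905, chr17:23675445-23677468, minus strand) encodes Fn14, the small receptor of TWEAK, made by hepatocytes, progenitor cells and stroma after injury. It stood at 14.0, 6.52 and 15.9 CPM in Ad_GFP and at 46.3, 27.9 and 54.3 CPM in ANG8. Again no ANG8 library fell within the range of the other groups, whose highest value was 21.6 CPM in shCtrl replicate 1. The rise of 1.82 (SE 0.40, adjusted p = 0.0123) passed in all 19 alternatives (adjusted p from 2.56e-06 to 0.0426). TWEAK itself, encoded by Tnfsf12, lay at 12.9, 6.66 and 13.2 CPM in Ad_GFP and at 7.82, 9.02 and 9.64 CPM in ANG8. These overlapped, and the difference was -0.31 (SE 0.28, 95% interval -0.91 to 0.29, adjusted p = 0.532). For Tnfsf12, 48.25% of the exon bases are shared with Tnfsfm13, so its level is uncertain. Of the hepatocyte markers, 7 of 10 fell in ANG8, beside 6.39% of all tested genes. The 10 markers summed to 23803 to 50280 CPM in ANG8 against 42618 to 64252 CPM in Ad_GFP. Markers of stellate cells (0 of 9) and cholangiocytes (0 of 5) had no calls by edgeR, with 0 and 2 at an unadjusted p under 0.05, and the part of cell makeup in the Tnfrsf12a rise was not tested.

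Tnfrsf10b (ENSMUSG00000022074, chr14:69767472-69784411, plus strand) encodes the mouse TRAIL receptor, which signals through FADD and caspase-8. It stood at 1.27, 2.96 and 2.69 CPM in Ad_GFP and at 8.98, 5.08 and 8.37 CPM in ANG8. The groups did not overlap, and the rise was 1.70 (SE 0.52, adjusted p = 0.0382). It passed in 12 of 19 alternatives. Leaving out 1 library removed the call for Ad_GFP replicate 1 (adjusted p = 0.144), replicate 2 (0.0669) and replicate 3 (0.0707), for ANG8 replicate 1 (0.131) and replicate 3 (0.0984), and for shCtrl replicate 1 (0.0513). With mitochondrial share in the model the adjusted p was 0.0502. Stretches of at most 405 of its 5451 exon bases match 132 other genes at 95% identity or more, which makes part of its count uncertain. Its ligand Tnfsf10 (TRAIL) was at 8.48, 13.4 and 8.14 CPM in Ad_GFP and at 8.98, 14.8 and 10.3 CPM in ANG8, a difference of 0.18 (SE 0.25, 95% interval -0.34 to 0.70, adjusted p = 0.689).

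**Figure D3:**
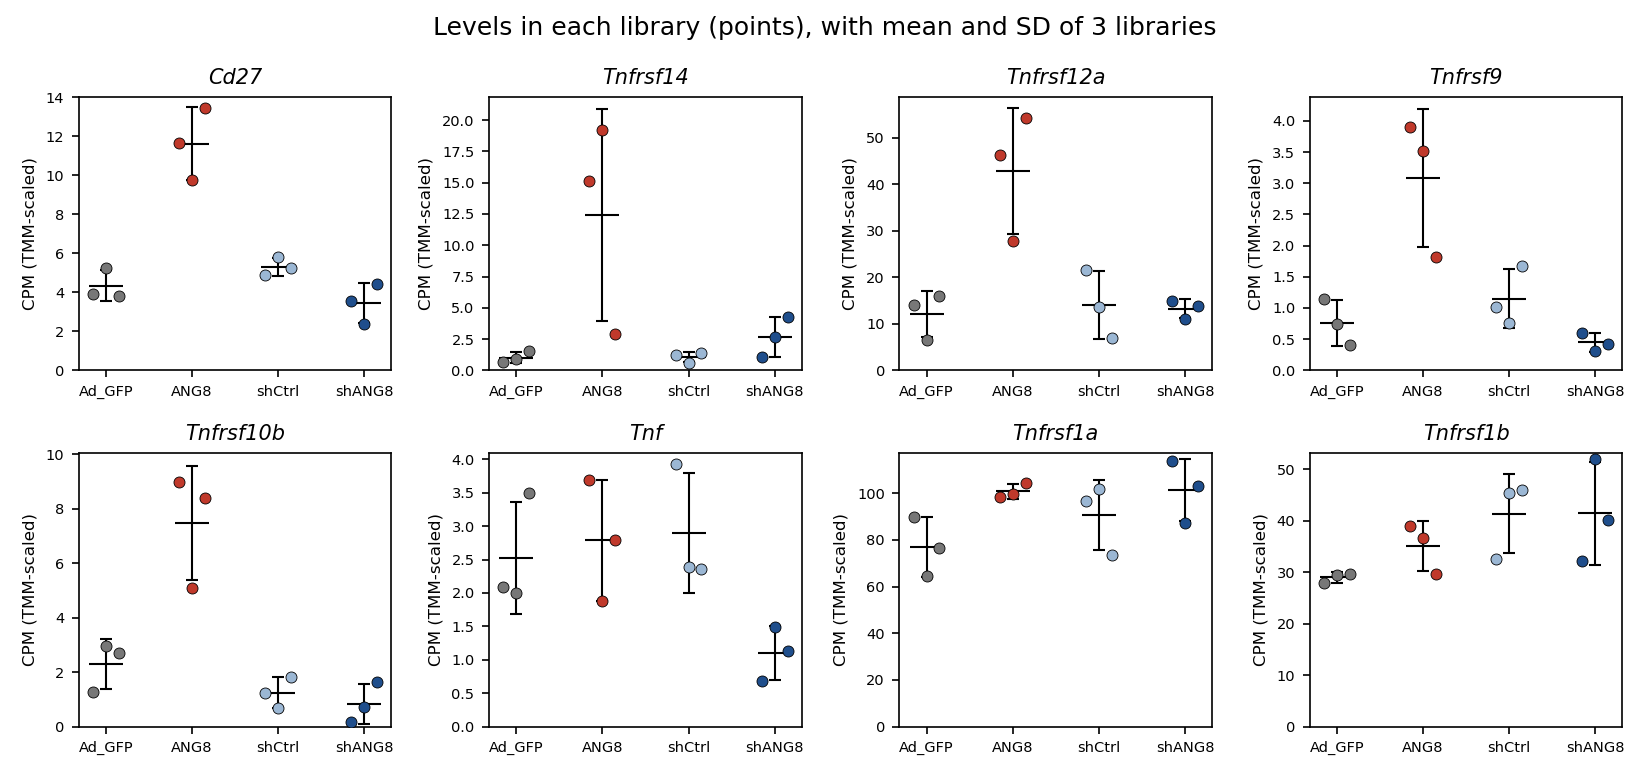
Level in CPM of Cd27, Tnfrsf14, Tnfrsf12a, Tnfrsf9, Tnfrsf10b, Tnf, Tnfrsf1a and Tnfrsf1b in each library (points), with the mean and SD of 3 libraries per group. The ANG8 points of Cd27 (9.75 to 13.5 CPM) and Tnfrsf12a (27.9 to 54.3 CPM) lie above all other libraries, and the ANG8 points of Tnfrsf14 spread from 2.91 to 19.2 CPM.

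Tnf, the founding cytokine of the family, did not differ detectably between ANG8 and Ad_GFP. Its level was 2.09, 2.0 and 3.50 CPM in Ad_GFP and 3.69, 1.89 and 2.79 CPM in ANG8, with full overlap. The difference was 0.14 (SE 0.41, adjusted p = 0.864), and its 95% interval ran from -0.73 to 1.02. Of 14 markers of macrophages and Kupffer cells, a known source of TNF, 11 rose in the same comparison, beside 7.08% of all tested genes. The 14 markers summed to 1147 to 1482 CPM in ANG8 and 469 to 656 CPM in Ad_GFP. As a share of that sum, again chosen after the values were seen, Tnf was 0.163% to 0.322% in ANG8 and 0.385% to 0.533% in Ad_GFP, which do not overlap. The control groups did not overlap in this share either, with 0.547% to 0.905% in shCtrl. In shANG8 it was 0.110% to 0.456%, below shCtrl. The part of these cells in the Tnf values was not tested.

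Tnfrsf1a encodes TNFR1, the broadly expressed death-domain receptor of TNF. It stood at 90.0, 64.4 and 76.6 CPM in Ad_GFP and at 98.5, 99.8 and 105 CPM in ANG8, without overlap. The difference of 0.39 (SE 0.18) did not pass (adjusted p = 0.155, and from 0.0779 to 0.43 over 19 alternatives). Tnfrsf1b encodes TNFR2, found mainly on immune and endothelial cells. Its level was 27.8, 29.5 and 29.7 CPM in Ad_GFP and 38.9, 36.6 and 29.6 CPM in ANG8, which overlapped (0.27, SE 0.19, adjusted p = 0.392).

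The other death receptors did not pass. Fas was at 12.9 to 16 CPM in Ad_GFP and 16.4 to 26.7 CPM in ANG8, without overlap (0.44, SE 0.24, adjusted p = 0.253), and its ligand Fasl at 0.592 to 1.01 and 1.15 to 2.17 CPM (1.21, SE 0.87, adjusted p = 0.401). Tnfrsf21 (DR6) was at 1.41 to 4.44 CPM in Ad_GFP and 3.28 to 7.40 CPM in ANG8 (0.85, SE 0.42, adjusted p = 0.196). Tnfrsf25 (DR3), the lymphocyte receptor of TL1A, had the lowest log2 fold change of the family. It stood at 0.696, 2.37 and 1.75 CPM in Ad_GFP and at 0.362, 0.574 and 0.485 CPM in ANG8, the single gene with every ANG8 library below every Ad_GFP library. The difference of -1.74 (SE 0.64) missed the threshold (adjusted p = 0.0837) and passed in 1 of 19 alternatives, DESeq2 (-1.76, adjusted p = 0.0449).

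Among the remaining TRAF-type receptors, Tnfrsf18 (GITR, a receptor of regulatory and activated T cells) was at 0.253 to 0.941 CPM in Ad_GFP and 0.869 to 2.62 CPM in ANG8 (1.66, SE 0.69, adjusted p = 0.123). It shares 27.17% of its exon bases with the antisense gene Gm16008, and without a stated strand setting these reads cannot be told apart. Tnfrsf11a (RANK) was at 1.78 to 2.76 CPM and 3.33 to 5.22 CPM, without overlap (0.84, SE 0.42, adjusted p = 0.209). Cd40 (0.15, SE 0.43), Tnfrsf4 (-0.15, SE 0.51), Tnfrsf13b (-0.10, SE 0.69) and Tnfrsf19 (-0.27, SE 0.34) had smaller differences, with adjusted p from 0.657 to 0.947. The osteoprotegerin gene Tnfrsf11b, a soluble decoy for RANKL and TRAIL, differed by -0.04 (SE 0.51, adjusted p = 0.975). Mouse Tnfrsf22 and Tnfrsf23, decoy TRAIL receptors, and their neighbour Tnfrsf26 lie together on chr7:143607659-143685872. They differed by -0.55, 0.87 and 0.97, with SE from 0.61 to 0.83 and adjusted p from 0.487 to 0.611. Stretches of at most 766 of the 4217 exon bases of Tnfrsf22 match 20 other genes at 95% identity or more, so part of its count is uncertain.

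**Figure D4:**
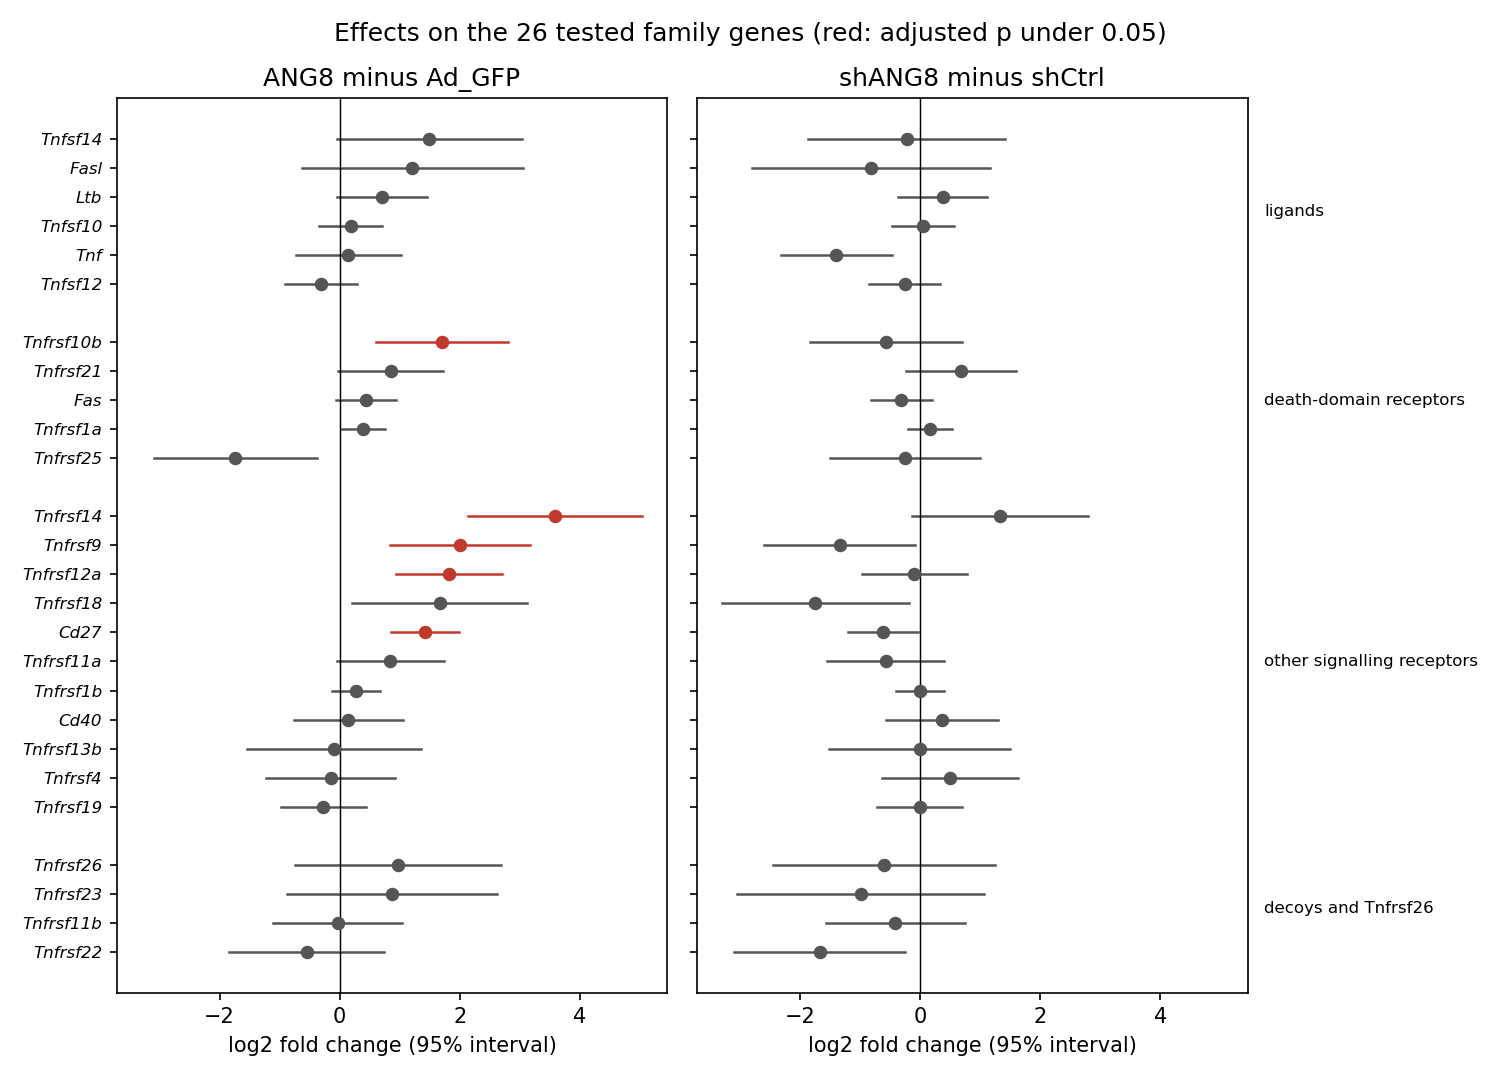
Log2 fold changes with 95% intervals of the 26 tested family genes in the overexpression (left) and knockdown (right) comparisons, grouped by role, with calls at an adjusted p under 0.05 in red. In the overexpression panel 5 receptors are red, between 1.43 and 3.59, and in the knockdown panel 0 genes are red.

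With the knockdown virus no family gene passed the test against shCtrl. EdgeR called 0 of 26 (5 at an unadjusted p under 0.05, 0 by DESeq2), beside 0.191% of all tested genes, 0.0613% higher and 0.129% lower. The median log2 fold change was -0.25, with 8 genes above and 18 below 0, beside 0.00786 over all tested genes. In 5 genes every shANG8 library lay below every shCtrl library and in 1 gene above, beside 6.78% and 6.16% of all genes. The smallest p was that of Tnf, with 3.94, 2.39 and 2.36 CPM in shCtrl and 0.682, 1.49 and 1.12 CPM in shANG8. These groups did not overlap, and the difference was -1.39 (SE 0.44, 95% interval -2.32 to -0.46, adjusted p = 0.383, and from 0.151 to 0.816 over 19 alternatives). Macrophage markers summed to 374 to 435 CPM in shCtrl and 328 to 618 CPM in shANG8, with 0 of 14 called by edgeR (2 at an unadjusted p under 0.05).

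The same non-overlap was seen for Cd27, at 4.89, 5.81 and 5.24 CPM in shCtrl and 3.56, 2.36 and 4.43 CPM in shANG8 (-0.62, SE 0.28, adjusted p = 0.595). Tnfrsf9 stood at 1.02, 0.752 and 1.67 CPM in shCtrl and at 0.606, 0.315 and 0.422 CPM in shANG8 (-1.33, SE 0.60, adjusted p = 0.595). Tnfrsf18 (-1.74, SE 0.74, adjusted p = 0.568) and the decoy Tnfrsf22 (-1.67, SE 0.68, adjusted p = 0.539) were the other genes wholly below. Both share stretches of sequence with other genes, as given above, so part of their counts is uncertain. The gene wholly above was Tnfrsf21, at 1.90 to 2.13 CPM in shCtrl and 2.18 to 4.24 CPM in shANG8 (0.68, SE 0.43, adjusted p = 0.737). T and NK cell markers also lay lower, at 66.7 to 85.8 CPM in shANG8 against 101 to 129 CPM in shCtrl. Of these 17 markers edgeR called 0 (6 at an unadjusted p under 0.05), and all 17 had a log2 fold change below 0. Over all 14686 tested genes 0.191% were called under knockdown, and 1164 had an unadjusted p under 0.05. The part of these cells in the Cd27, Tnfrsf9 and Tnfrsf18 values was not tested.

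Genes that rose with the ANG8 virus gave mixed values under knockdown. Tnfrsf12a was at 21.6, 13.5 and 6.99 CPM in shCtrl and at 14.9, 10.9 and 13.8 CPM in shANG8 (-0.09, SE 0.40, adjusted p = 0.983). Tnfrsf14 was at 1.22, 0.615 and 1.37 CPM in shCtrl and at 1.06, 2.67 and 4.29 CPM in shANG8 (1.33, SE 0.68, adjusted p = 0.672). For Tnfrsf10b the levels were 1.22, 0.683 and 1.82 CPM in shCtrl and 0.152, 0.708 and 1.62 CPM in shANG8 (-0.56, SE 0.60, adjusted p = 0.882). The TNF receptor Tnfrsf1a stood at 96.8, 102 and 73.5 CPM in shCtrl and 114, 87.2 and 103 CPM in shANG8 (0.16, SE 0.17, 95% interval -0.21 to 0.53, adjusted p = 0.885). Tnfrsf1b stood at 32.5, 45.4 and 46.1 CPM in shCtrl and 32.1, 52.0 and 40.2 CPM in shANG8 (0.00, SE 0.19, 95% interval -0.40 to 0.41, adjusted p = 0.998).

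Whether a gene responded differently to overexpression and to knockdown was tested as the difference between these effects. Of the 26 genes, 2 passed (7.69%), Cd27 and Tnfrsf9, both with the higher effect under overexpression. Over all tested genes 6.62% passed, 3.72% higher and 2.9% lower, so the family's share in either direction was near that of all genes. The difference for Cd27 was 2.04 (SE 0.38, adjusted p = 0.00583) and passed in all 18 alternatives run for it. For Tnfrsf9 it was 3.33 (SE 0.81, adjusted p = 0.0214), and it did not pass without ANG8 replicate 1 (adjusted p = 0.0701), without shCtrl replicate 3 (0.0549) or in a model with mitochondrial share (0.0512). Tnfrsf18 missed the threshold at 3.40 (SE 1.01, adjusted p = 0.0516) and passed in 5 of 18 alternatives. These were no filter on low counts (adjusted p = 0.0153), mitochondrial genes left out (0.0478), the replicate block (0.0269), DESeq2 (0.0107) and without shANG8 replicate 2 (0.0394).

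Tnfrsf12a (1.91, SE 0.57, adjusted p = 0.0666), Tnfrsf10b (2.26, SE 0.79, adjusted p = 0.0973) and Tnfrsf14 (2.26, SE 0.95, adjusted p = 0.18) did not pass. Tnfrsf12a passed in 6 of 18 alternatives, which were no filter on low counts (adjusted p = 0.000539), mitochondrial share as a covariate (0.0264), the replicate block (0.0304), DESeq2 (0.00654), and without ANG8 replicate 2 (0.0472) or shCtrl replicate 3 (0.0208). Tnfrsf10b passed in 4: no filter (0.00888), the replicate block (0.0442), DESeq2 (0.0399) and without shANG8 replicate 3 (0.0188). Tnfrsf14 passed in 2, with no filter (0.00287) and without ANG8 replicate 3 (0.0317). Whether the rise of these genes differed from their effect under knockdown thus depended on the setting. For Tnf the difference was 1.54 (SE 0.60, adjusted p = 0.14), and it passed in 0 of 18 alternatives.

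The control viruses were compared with each other, and these values share libraries with the comparisons above. EdgeR called 0 of 26 family genes between shCtrl and Ad_GFP (1 at an unadjusted p under 0.05, 0 by DESeq2), beside 0% of all tested genes, of which 1286 had an unadjusted p under 0.05. The gene with the smallest p was Tnfrsf1b, at 27.8 to 29.7 CPM in Ad_GFP and 32.5 to 46.1 CPM in shCtrl (0.51, SE 0.19, adjusted p = 0.455), where every shCtrl library was higher. Group means of Tnfrsf1b, from the lowest, were those of Ad_GFP (29.0 ± 1.02 CPM, SD, n = 3), ANG8 (35.0 ± 4.83), shCtrl (41.3 ± 7.65) and shANG8 (41.4 ± 9.99).

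Downstream of the receptors, 2 of 38 adaptors, kinases, ubiquitin editors and death effectors rose with the ANG8 virus, 0 fell and 36 did not pass, with a median of 0.02. The called share of 5.26% stood beside 13.5% of all tested genes called (7.08% higher), and 9 of the 38 had an unadjusted p under 0.05. Mlkl, the pore-forming effector of necroptosis, rose from 10.3, 7.55 and 15.3 CPM in Ad_GFP to 32.7, 30.7 and 38.5 CPM in ANG8 (1.62, SE 0.25, adjusted p = 0.000746). Tnip1, a ubiquitin-binding partner of the NF-kB inhibitor A20, rose from 20.2, 17.8 and 18.8 CPM to 30.9, 28.9 and 42.5 CPM (0.85, SE 0.18, adjusted p = 0.00501). Both were called in all 19 alternatives. The kinase gene Chuk (-0.46, SE 0.15, adjusted p = 0.0511) and the adaptor Traf3 (0.58, SE 0.22, adjusted p = 0.0983) did not pass. None of 11 NF-kB subunits and inhibitors passed edgeR's test (0 at an unadjusted p under 0.05), with a median of 0.23 and the smallest p for Nfkbie (0.54, SE 0.33, adjusted p = 0.315), Nfkb2 (0.37), Relb (0.36) and Nfkbib (0.30).

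Genes known as TNF-induced NF-kB targets gave 6 rises and 0 falls among 21 tested of 25 listed, with a median of 0.69. These 28.6% stood beside 13.5% of all tested genes called, 7.08% higher, and 14 of the 21 had an unadjusted p under 0.05, in either direction. The log2 fold change was above 0 for 16 of the 21 and below 0 for 5, down to -1.16. Means of the acute-phase targets Saa1 and Saa2 were 74.2 and 33.1 CPM in Ad_GFP and 33.2 and 15.1 CPM in ANG8, neither called. The macrophage and lymphocyte chemokines Ccl3 (2.06, SE 0.37, adjusted p = 0.00185) and Ccl4 (1.84, SE 0.30, adjusted p = 0.00108) rose, as did Cxcl10, a T cell chemokine also induced by interferon (1.07, SE 0.24, adjusted p = 0.00686). These 3 were called in all 19 alternatives. The adhesion molecule Vcam1 (1.42, SE 0.32, adjusted p = 0.0109) was lost without Ad_GFP replicate 1 (0.0504). Icam1, also an adhesion molecule (0.78, SE 0.21, adjusted p = 0.022), was lost without Ad_GFP replicate 2 (0.0957), ANG8 replicate 1 (0.0634) or ANG8 replicate 3 (0.0932). The survival gene Bcl2a1b (1.16, SE 0.37, adjusted p = 0.0475) passed in 7 of 19 alternatives (adjusted p from 0.0168 to 0.153). Several of these genes are also expressed by macrophages and T cells, many of whose markers rose in ANG8 as given above, and by dendritic cells. Of 9 dendritic cell markers 3 rose and 0 fell, with a median of 0.84, and their sum was 717 to 1239 CPM in ANG8 and 204 to 347 CPM in Ad_GFP. The 3 were Cd74, H2-Aa and H2-Ab1, MHC class II genes that macrophages and B cells also express. The part of these cells was not tested.

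Of family genes outside the naming rule, 5 of 7 were tested and edgeR called 0 between ANG8 and Ad_GFP (2 at an unadjusted p under 0.05). Over all 14686 tested genes 13.5% were called in this comparison, and 4069 had an unadjusted p under 0.05. Relt differed by 1.07 (SE 0.47, adjusted p = 0.141) and Eda2r, the ectodysplasin A2 receptor, by 1.12 (SE 0.51, adjusted p = 0.174). Cd40lg, the ligand of CD40, had 3 counts over all libraries.

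Under knockdown, edgeR called 0 of 38 signalling genes (5 at an unadjusted p under 0.05), 0 of 11 NF-kB factors (1), 0 of 21 targets (2) and 0 of 5 other family genes (0). Over all 14686 tested genes 0.191% were called and 1164 had an unadjusted p under 0.05, so these counts of 0 were near the share of all genes. The signalling genes with the smallest p were Traf1, an NF-kB-induced adaptor of TNFR2 and 4-1BB (-0.94, SE 0.24, adjusted p = 0.191), Mlkl (-0.73, SE 0.26, adjusted p = 0.467), Casp8 (-0.47, SE 0.18, adjusted p = 0.515) and Bid (-0.42, SE 0.17, adjusted p = 0.54). Traf1 stood at 10.2, 12.4 and 8.59 CPM in shCtrl and at 6.14, 4.80 and 5.34 CPM in shANG8, without overlap. Among targets the smallest p belonged to Ccl3 (-1.07, SE 0.38, adjusted p = 0.467) and Icam1 (-0.48, SE 0.22, adjusted p = 0.604), and among NF-kB factors to Nfkbia, which encodes IkB alpha (0.40, SE 0.17, adjusted p = 0.562). By the test of the difference between effects, 3 of 38 signalling genes (Mlkl, Tnip1 and Traf1) and 4 of 21 targets (Ccl3, Ccl4, Cxcl10 and Icam1) had a higher effect under overexpression than under knockdown. These are 7.89% and 19% of the lists tested, beside 6.62% of all tested genes called for the difference, 3.72% higher, so the share of signalling genes was near that of all genes.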

How the data were processed

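Liver RNA of 12 mouse libraries in 4 groups of 3 was sequenced, per the labels' protocols from Trizol extracts with the NEBNext Ultra RNA kit. The authors deposited raw read counts per gene, not normalized; tools named in the submitters' processing notes are featureCounts 1.5.0-p3 and CASAVA 1.8.2, with mm9 as the build. For the aligner, strand setting and annotation the sources used here give nothing. Coordinates are those of the deposited table: 53585 of its 54532 genes, and 38 of the 39 family genes (not Fas), have the same coordinates in GENCODE vM21 (GRCm38), so they are read as GRCm38. Reads that match several genes or the readthrough gene may be split or lost by the counting.

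Counts were tested with edgeR 4.0.16 in R 4.3.3: filterByExpr (minimum count 10, 14686 genes kept), TMM scaling and a robust quasi-likelihood fit over all 12 libraries. The fit was checked on simulated data with a fixed spread and with changes only in better-counted genes. That check does not cover changes in genes with few reads. Contrasts were overexpression (ANG8 minus Ad_GFP), knockdown (shANG8 minus shCtrl), the first minus the second, and control viruses (shCtrl minus Ad_GFP). Effects are log2 fold changes with SE as the absolute effect over the root of F, Benjamini-Hochberg adjustment ran over all tested genes, and calls were made at 0.05. Levels are TMM-scaled CPM. The members, gene lists and tests were chosen with earlier results of these data known. Named with all libraries were called members, Tnf, Tnfrsf1a and Tnfrsf1b, and from each list up to 4 genes with the smallest p; Icam1, Bcl2a1b, Traf1 and other members' values were added after they were seen. Alternatives were RLE factors, no filter, mitochondrial genes left out, mitochondrial share as covariate, a replicate block, DESeq2 1.42.0, the compared groups alone, and each library left out.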

Additional observations from a re-analysis of the deposited data

Results flagged for a closer look

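The effects of overexpression and knockdown differed, by the test of the difference itself, for 2 family genes. These were 7.69% of the 26 tested, near the 6.62% of all tested genes called for the difference. For Cd27 the overexpression minus knockdown effect was 2.04 on the log2 scale (edgeR adjusted p = 0.00583), higher than Ad_GFP in 3 of 3 ANG8 libraries and lower than shCtrl in 3 of 3 shANG8 libraries. For Tnfrsf9 it was 3.33 (adjusted p = 0.0214, called in 15 of 18 alternatives with adjusted p up to 0.0701), with the same order of libraries. Among genes downstream of the receptors the difference was 2.35 for Mlkl (adjusted p = 0.00206), 1.16 for Tnip1 (0.0134), 1.42 for Traf1 (0.0186, and 0.0546 without shCtrl replicate 2), 3.14 for Ccl3 (0.00284), 1.86 for Ccl4 (0.017), 1.47 for Cxcl10 (0.0164) and 1.26 for Icam1 (0.0209, and 0.0681 without shCtrl replicate 1 or 0.0505 without shCtrl replicate 2).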

How the results depend on the processing

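The family genes called under overexpression numbered 5 in the fit reported, 3 with the mitochondrial share as a covariate and 3 to 5 when 1 library was left out; those 3 were Cd27, Tnfrsf12a and Tnfrsf14. DESeq2 called 6, and the other alternatives with all libraries of the groups called 5. Under knockdown 0 were called in all 19 alternatives, also when 1 library was left out (0 to 0), and between control viruses 0 likewise (0 to 0). For the difference between effects 2 became 6 without the filter, 5 with the replicate block, 5 with DESeq2 and 1 to 3 with 1 library left out. Over all genes, the 28 calls under knockdown became 132 without the filter, 47 with the mitochondrial share, 55 with the replicate block and 102 with DESeq2 (21 to 39 with 1 library left out). The 972 calls of the difference became 1510 without the filter, 1550 with the block and 1541 with DESeq2 (473 to 1227), and the 0 between control viruses became 96, 5 and 38 (0 to 10). The 1978 overexpression calls ranged from 995 to 2164 with 1 library left out. The cause was not tested, except that leaving out a library reduces the samples. Among the named family and list genes followed over these settings, no called effect changed sign, and other genes were not checked for this. The difference between effects uses all 4 groups, so a fit of the compared groups alone could not be run for it. Same-numbered libraries correlated at -0.067, 0.116 and 0.149 (Ad_GFP and ANG8), at 0.034, 0.082 and 0.186 (shCtrl and shANG8), and at -0.038, 0.072 and 0.081 (Ad_GFP and shCtrl) and -0.044, 0.136 and 0.207 (ANG8 and shANG8). Not every pair exceeded 0.1, so the numbers were not taken to pair the samples. In each of these pairs of groups, replicates 2 and 3 of the first-named group correlated best with their own number, and replicate 1 in 0 of them. For Ad_GFP replicate 2 and ANG8 the margin was small, 0.116 against 0.114 for the best other number. This is a hint from the data and not from the design. Depth limits the genes with few reads: those with an Ad_GFP mean under 1 CPM had SEs of 0.55 to 0.87 under overexpression, against 0.18 for Tnfrsf1a.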
